A study of Mus musculus with 6 samples.

Results

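The carbonic anhydrases described here are 10 genes, Car2, Car3, Car4, Car7, Car8, Car10, Car11, Car12, Car14 and Car15, picked by symbol from the 23282 entries of each count table. The tables list 16 carbonic anhydrase genes in all, and Car1, Car5a, Car5b, Car6, Car9 and Car13 are given separately. All 10 genes passed the filter on low counts, and Car3 passed it through its NCD libraries alone. The RNA came from the forebrain of wild-type C57BL/6J male mice of 8 to 10 weeks, fed a normal chow diet (NCD) or a high-fat diet (HFD, 60% of calories from fat) for 10 days. Each diet had 3 libraries, made with a kit that reads the 3′ end of polyadenylated RNA, from 1 hemisphere without olfactory bulb and cerebellum. The diets shared strain, sex, age range and dissection, and the sources used here do not say whether each library is 1 mouse, so p-values measure the spread between these samples. In such bulk tissue, fewer cells of a type and less RNA per cell cannot be told apart.

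Carbonic anhydrases catalyse the reversible hydration of carbon dioxide to bicarbonate and a proton, with a zinc ion held by histidines of the active site. They differ in where they act: some work in the cytosol, some on the outer face of the cell membrane and some in mitochondria or secretions. In the brain they are known for their part in pH regulation around firing neurons, in the clearance of carbon dioxide and in the making of cerebrospinal fluid. The related proteins Car8, Car10 and Car11 share the fold but lack part of the zinc site, and are known as binding partners of other proteins rather than as enzymes.

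The total count per library was between 6842785 and 9689372 reads, and the 10 genes together took between 0.0468% and 0.0538% of it. Levels are given as counts scaled to the effective size of the library (TMM-scaled CPM). Forebrain identity genes summed to 796 to 896 CPM in the NCD libraries and 828 to 852 CPM in the HFD libraries. HFD replicate 3 stood farthest from the others, with a mean distance of 56.5 on the log2 scale against 45.5 to 53.0, and its summed pituitary transcripts reached 1276 CPM against 4.75 to 13.6 CPM elsewhere. Midbrain and hindbrain transcripts stood at 64.7, 87.4 and 93.6 CPM in the NCD and at 72.7, 67.0 and 40.7 CPM in the HFD libraries, which overlapped. Of the 8 midbrain and hindbrain genes tested, 4 were lower and 0 higher at an unadjusted p under 0.05 in edgeR. Among all genes tested, 1.98% were lower and 1.71% higher at that level. The part of midbrain and hindbrain transcripts in the values of the 10 genes was not tested. Liver transcripts stood at 43.7 and 81.7 CPM in NCD replicates 1 and 2 and at 9.07 to 18.2 CPM in the other 4 libraries. Erythroid transcripts were higher in every HFD library (762 to 1190 CPM) than in any NCD library (610 to 738 CPM). For some of the genes, values are also given without 1 or more of these libraries.

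The active site is shown first, because the zinc-binding histidines are what the related proteins lack in part. Each line gives, for 9 of the 10 genes, 5′ to 3′ and in coding direction, the GRCm38 coding sequence from the codon aligned with codon 94 of Car2 to the codon aligned with its codon 119, and capitals mark the codons aligned with the 3 zinc-binding histidines of Car2 (codons 94, 96 and 119). Each stretch lies in 2 coding exons, so the coordinates also span an intron.
Car2 (chr3:14895069-14895540, forward strand): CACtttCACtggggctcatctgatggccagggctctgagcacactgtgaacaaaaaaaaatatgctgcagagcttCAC
Car3 (chr3:14866850-14868354, forward strand): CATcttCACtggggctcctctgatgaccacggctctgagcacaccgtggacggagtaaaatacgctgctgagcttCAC
Car7 (chr8:104547734-104548191, forward strand): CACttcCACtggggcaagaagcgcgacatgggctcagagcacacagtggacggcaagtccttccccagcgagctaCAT
Car4 (chr11:84964167-84964353, forward strand): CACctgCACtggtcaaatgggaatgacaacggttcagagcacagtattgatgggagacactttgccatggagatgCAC
Car12 (chr9:66747647-66750935, forward strand): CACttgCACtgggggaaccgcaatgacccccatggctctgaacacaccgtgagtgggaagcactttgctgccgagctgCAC
Car14 (chr3:95900021-95900317, reverse strand): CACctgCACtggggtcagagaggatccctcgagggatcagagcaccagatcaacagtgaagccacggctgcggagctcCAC
Car15 (chr16:17836630-17836789, reverse strand): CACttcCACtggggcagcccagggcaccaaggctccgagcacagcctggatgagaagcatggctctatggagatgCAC
Car10 (chr11:93490606-93578671, forward strand): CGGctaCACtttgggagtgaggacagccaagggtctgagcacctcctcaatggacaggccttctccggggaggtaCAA
Car11 (chr7:45702548-45702838, forward strand): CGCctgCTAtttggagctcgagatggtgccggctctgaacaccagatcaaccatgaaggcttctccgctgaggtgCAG
The cytosolic enzymes Car2, Car3 and Car7 and the membrane enzymes Car4, Car12, Car14 and Car15 have a histidine codon (CAC or CAT) at 3 of 3 places. Car10 keeps only the middle one, between CGG and CAA, codons for arginine and glutamine. Car11 has none of the 3, with CGC, CTA and CAG in their place. The stretch is 81 bases in Car12 and Car14 and 78 bases in the others. Over the whole translated sequences, Car2 and Car3 were identical at 56.9% of aligned residues, Car10 and Car11 at 55.2%, Car2 and Car7 at 55.0%, Car7 and Car8 at 44.0% and Car12 and Car14 at 42.5%, and the lowest value of all pairs was 23.5%, for Car4 and Car11.

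Car2 was the most abundant of the 10 genes, with a mean of 186 CPM over the 6 libraries, 37.3% of their summed level. Car10 followed with 132 CPM (26.4%) and Car11 with 75.5 CPM (15.1%), so that 2 of the 3 leading genes code for related proteins. Car4 had 31.9 CPM, Car14 29.3 CPM, Car8 16.7 CPM, Car7 12.9 CPM and Car12 9.95 CPM. Car15 with 3.30 CPM and Car3 with 1.59 CPM were near the lower end of what these libraries can measure, since a count of 3 equals 0.316 to 0.432 CPM. Such floors, like all counting errors given here, cover counting error only.

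**Figure D1:**
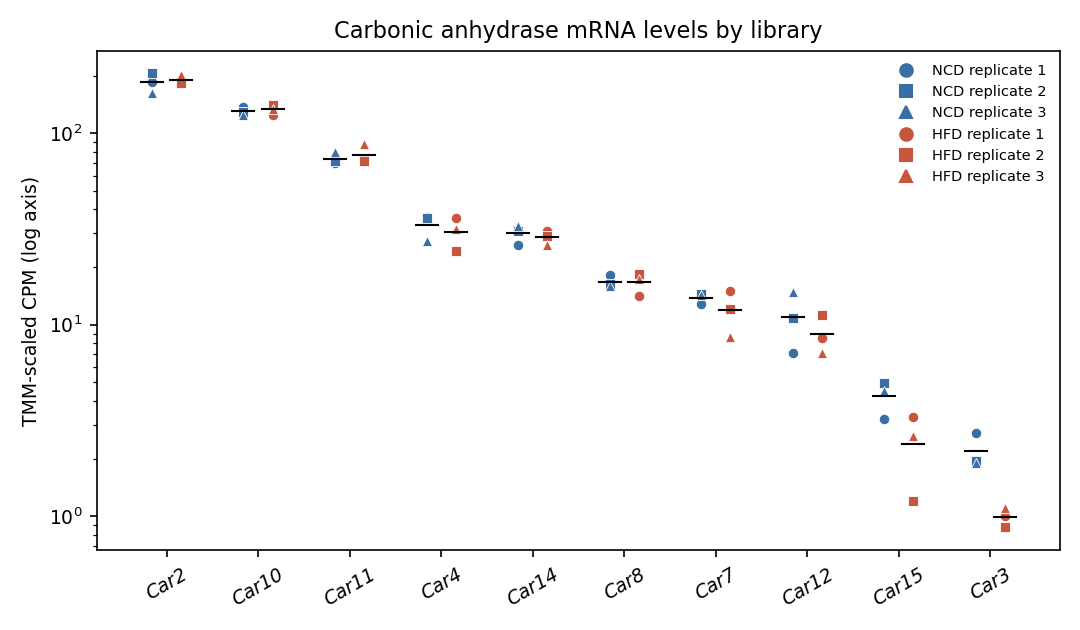
Level of each carbonic anhydrase in CPM on a log axis, with 1 point per library, coloured by diet and shaped by replicate, and a line at the mean of each diet. Car2 lies between 162 and 205 CPM and Car3 between 0.874 and 2.72 CPM, and the 2 diets overlap in every gene but Car3.

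Divided by the exon length of the gene, the order was Car2 (77.0 CPM per kb), Car11 (39.2), Car10 (20.7), Car4 (16.2), Car14 (11.5), Car8 (4.34), Car7 (3.54), Car15 (1.73), Car12 (1.31) and Car3 (0.555). The neighbours Car4 and Car14, Car8 and Car7, Car7 and Car15, Car15 and Car12, and Car12 and Car3 overlapped over the 6 libraries in CPM per kb. Car10 changed places with Car11, and Car12 with Car15, between these 2 scales. A 3′ library yields reads near the transcript end whatever its length, so the order in CPM and the order per kb are both given, and neither is a measure of protein.

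By class, the related proteins summed to 221 ± 3.33 CPM (SD, n = 3) in the NCD and 227 ± 13.4 CPM in the HFD libraries. The cytosolic enzymes summed to 200 ± 21.99 CPM (NCD) and 202 ± 9.01 CPM (HFD), of which nearly all was Car2. Membrane enzymes summed to 78.4 ± 4.86 CPM (NCD) and 70.6 ± 7.15 CPM (HFD). The summed level of all 10 genes was 499 ± 21.6 CPM in the NCD and 500 ± 15.7 CPM in the HFD libraries. In each of the 3 classes and in the total, the diets overlapped.

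The comparison of the diets asks whether 10 days of HFD changed the transcript level of these genes. Car3 and Car15 were lower in the HFD libraries, with an unadjusted p under 0.05 by the quasi-likelihood test of edgeR, and 0 of the 10 genes were higher at that level. After Benjamini-Hochberg adjustment over all 13771 genes tested, 0 of the 10 genes passed, and the smallest adjusted p among all genes was 0.519. Among all genes tested, 3.68% had an unadjusted p under 0.05, made up of 1.98% lower and 1.71% higher on the HFD. With adjustment, edgeR called 0% of all genes, against 507 genes without it, and DESeq2 called 2 genes after adjustment, neither of them a carbonic anhydrase.

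The diets did not overlap for 1 of the 10 genes, Car3, against 8.81% of all genes tested (4.49% lower and 4.31% higher on the HFD). The log2 fold change was below 0 for 7 of the 10 genes, against 50.6% of all genes. Its median was -0.098 over the 10 genes and -0.00245 over all genes. A change of at least 1.5-fold was seen for Car3 and Car15, against 3.73% of all genes, and both have far fewer counts (means of 13.5 and 28.0 per library) than the median gene tested (182.5).

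**Figure D2:**
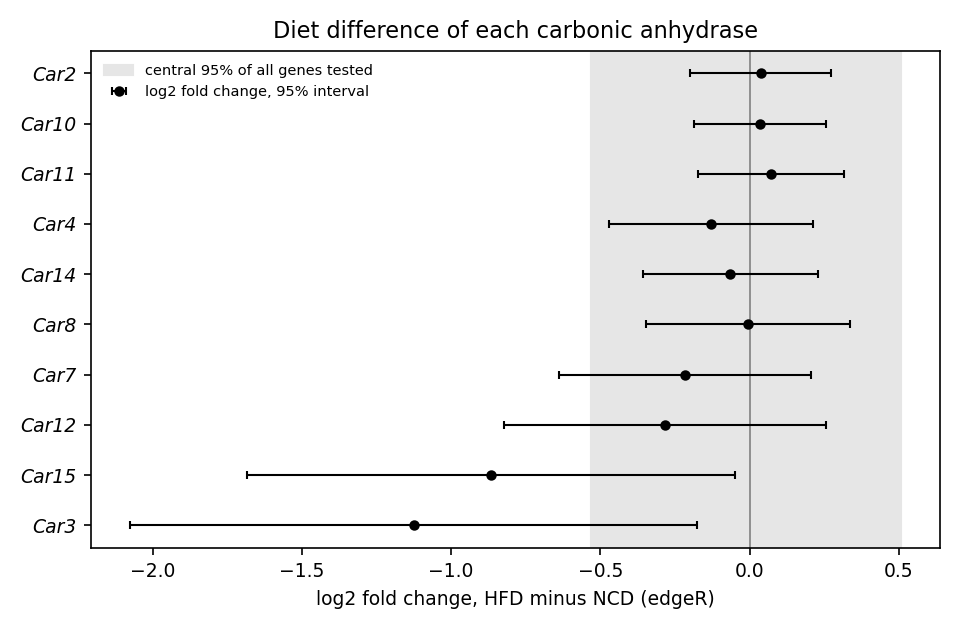
Log2 fold change, HFD against NCD, of each carbonic anhydrase with its 95% interval from the edgeR fit, over a grey band for the central 95% of all genes tested (-0.53 to 0.51). The intervals of Car3 and Car15 lie below 0 and those of the other 8 genes include 0.

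Car2 is the fast cytosolic enzyme of oligodendrocytes and choroid plexus. Its gene lies at chr3:14886273-14900770 on the forward strand. Its level was 186, 205 and 162 CPM in NCD replicates 1 to 3 and 183, 182 and 202 CPM in HFD replicates 1 to 3. All HFD values lay within the NCD range. HFD and NCD differed by a log2 fold change of 0.037 (SE 0.11, adjusted p = 0.986 in edgeR), and the 95% interval of -0.20 to 0.27 covers a change between -12.9% and 20.9%.

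With a mean count of 1557, Car2 had a counting error of 2.53%, while the replicates varied by 11.9% (NCD) and 6.11% (HFD), so that depth did not set the width of its interval. The summed oligodendrocyte markers were 8965, 9009 and 7845 CPM in the NCD libraries and 9499, 8832 and 8810 CPM in the HFD libraries. NCD replicate 3 was lowest both in these markers and in Car2. Per 1000 CPM of these markers, Car2 stood at 20.6 to 22.8 CPM in the NCD and at 19.2 to 23.0 CPM in the HFD libraries, which overlapped. The summed erythroid transcripts were higher in the HFD libraries. Of the 7 erythroid genes tested, 6 were higher and 0 lower at an unadjusted p under 0.05 in edgeR. Among all genes tested, 1.71% were higher and 1.98% lower at that level. Car1, the abundant carbonic anhydrase of red cells, and the red cell membrane gene Slc4a1 were at 0 counts in all 6 libraries. The part of red cells in the Car2 level was not tested.

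Car3 is a slow cytosolic enzyme known from skeletal muscle, fat and liver. It lies at chr3:14863512-14872523, upstream of Car2 on the same strand. It was read 22, 18 and 18 times in the NCD libraries and 7, 8 and 8 times in the HFD libraries, or 2.72, 1.94 and 1.90 CPM against 1.01, 0.874 and 1.10 CPM. Every HFD library lay below every NCD library. The means were 2.18 ± 0.460 CPM and 0.994 ± 0.113 CPM (SD, n = 3), and the log2 fold change was -1.13 (SE 0.45, 95% interval -2.08 to -0.17, adjusted p = 0.979 in edgeR). In percent, the limits of the interval are -76.3% and -11.4%. Over the alternatives the adjusted p of Car3 ran from 0.803 to 0.9999.

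All 3 HFD counts of Car3 were under the minimum of 10 that the filter asks for, so the gene was tested only because its NCD counts were higher, and a filter of 10 counts in every library left it out. With no filter at all, Car3 was at -1.13 and its unadjusted p was again under 0.05. Counting error alone was 27.2% of the mean, above the spread between replicates in either diet (21.1% and 11.4%). Leaving out NCD replicate 1 gave -0.95, leaving out HFD replicate 1 gave -1.14 and leaving out HFD replicate 2 gave -1.03, and in each of these 3 fits the unadjusted p was over 0.05.

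Transcripts typical of the tissues that Car3 is known from were also looked at. All 8 liver genes tested were lower in the HFD libraries at an unadjusted p under 0.05, against 1.98% of all genes tested. The median log2 fold change of these 8 genes was -1.85. The plasma protein albumin (Alb) was read 109, 249 and 37 times in the NCD and 14, 50 and 13 times in the HFD libraries. In NCD replicate 3, where summed liver transcripts were 14.7 CPM and so within the HFD range (9.07 to 18.2 CPM), Car3 was at 1.90 CPM, above all HFD libraries. Leaving out NCD replicates 1 and 2, an alternative chosen after the data were seen, gave a log2 fold change of -0.93, given as a value only, since 1 NCD library was left and the HFD libraries alone gave the spread.

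Skeletal muscle transcripts summed to 21.5, 21.1 and 21.6 CPM in the NCD and to 17.6, 17.5 and 18.7 CPM in the HFD libraries, every HFD library below every NCD library. Most of these reads came from the actin gene Acta1, with 114, 137 and 143 counts (NCD) and 67, 97 and 96 counts (HFD), while the muscle creatine kinase Ckm had 0 to 2 counts. Mylpf was lower too (12, 9 and 7 against 3, 6 and 4 counts). Atp2a1 (18, 29 and 29 counts in the NCD and 30, 16 and 16 in the HFD libraries) overlapped between the diets. So did Myh1 (13, 11 and 11 against 12, 13 and 8 counts). Of the 3 muscle genes tested, 1 was lower at an unadjusted p under 0.05, beside 1.98% of all genes tested. The fat markers Adipoq (0, 0 and 0 counts in the NCD and 0, 1 and 4 in the HFD libraries) and Plin1 (0 or 1 count) were at or near 0. Cfd and Cidec had 0 to 4 counts. Lep had 3, 2 and 3 counts (NCD) and 0, 0 and 0 counts (HFD). Fabp4 had 2, 4 and 0 counts (NCD) and 1, 3 and 10 counts (HFD). Lpl, also on the fat list, had 245, 283 and 263 counts (NCD) and 222, 270 and 260 counts (HFD). The part of liver, muscle or fat transcripts in the Car3 difference was not tested.

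**Figure D3:**
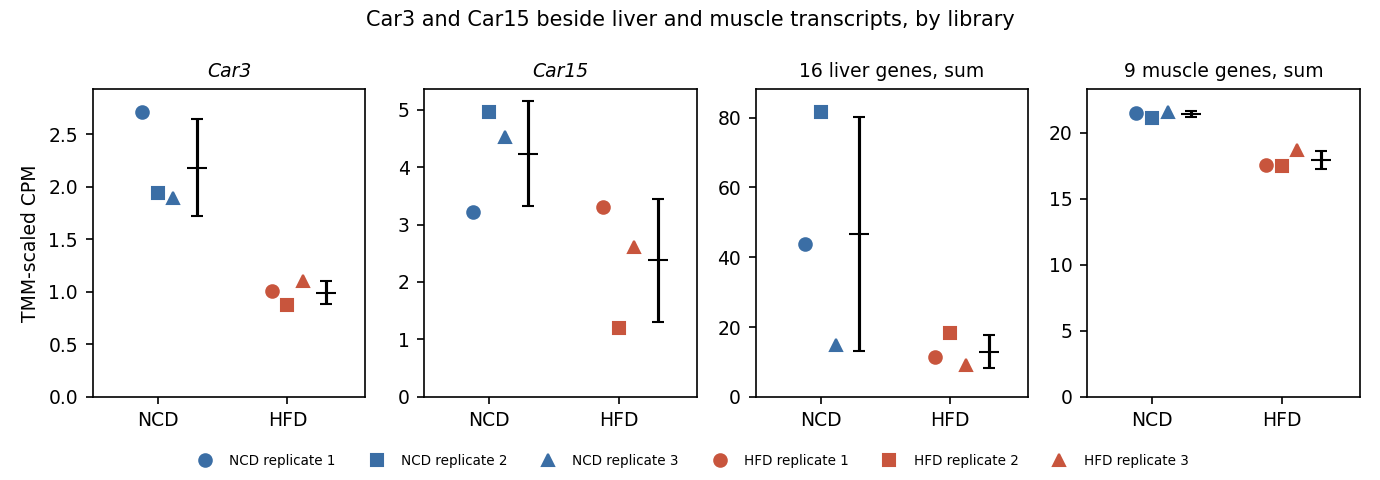
Per-library levels in CPM of Car3 and Car15 beside the summed transcripts of liver and skeletal muscle, with 1 point per library, and the mean and SD of each diet (n = 3) beside the points. Car3 and the muscle sum are lower in every HFD library than in every NCD library, while Car15 and the liver sum overlap between the diets. Most reads of the muscle sum come from Acta1.

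Car7, a cytosolic enzyme of neurons that supplies bicarbonate for GABA-gated currents, lies at chr8:104534689-104550343 on the forward strand. It stood at 12.8, 14.5 and 14.2 CPM in the NCD libraries and at 14.97, 12.1 and 8.66 CPM in the HFD libraries. The HFD values ran from above to below the NCD range, with HFD replicate 3 lowest. Its log2 fold change was -0.22 (SE 0.20, 95% interval -0.64 to 0.20, adjusted p = 0.979 in edgeR), and -0.040 without HFD replicate 3. Summed neuron markers ran from 5289.4 to 5507 CPM in the NCD and from 5236 to 5288.9 CPM in the HFD libraries. The ranges thus nearly touched, and the HFD mean was 0.970 of the NCD mean. Of the 7 neuron genes tested, 0 had an unadjusted p under 0.05. The part of neuron content in the Car7 values was not tested.

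Car4, a membrane-anchored enzyme of brain capillary endothelium, lies at chr11:84957786-84966044 on the forward strand. It stood at 36.7, 35.9 and 27.4 CPM in the NCD libraries and at 36.0, 24.1 and 31.5 CPM in the HFD libraries. The diets overlapped, with 1 low library in each. A log2 fold change of -0.13 was fitted (SE 0.16, 95% interval -0.47 to 0.21, adjusted p = 0.979 in edgeR), with limits of -27.9% and 15.8%. Endothelial markers summed to 171 to 180 CPM in the NCD and to 159 to 211 CPM in the HFD libraries. Per 1000 CPM of these, Car4 was at 203, 210 and 157 CPM (NCD) and at 171, 127 and 198 CPM (HFD), again overlapping.

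Car12, a transmembrane enzyme of epithelia, lies at chr9:66713686-66766845 on the forward strand. It stood at 7.16, 10.8 and 14.9 CPM in the NCD libraries and at 8.49, 11.3 and 7.15 CPM in the HFD libraries. Its NCD replicates spread more than those of any other of the 10 genes (35.2% of the mean, with a counting error of 10.8%). The log2 fold change was -0.28 (SE 0.26, 95% interval -0.82 to 0.26, adjusted p = 0.979 in edgeR), and it was 0.00327 without NCD replicate 3. Against NCD replicate 3 alone, the highest of the 6 libraries for Car12, it was -0.72, given as a value only.

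Choroid plexus markers summed to 1051, 1178 and 1320 CPM (NCD) and to 1115, 1258 and 1194 CPM (HFD). Most of these reads came from Ttr, with 8164, 10368 and 11936 counts (NCD) and 7364, 10959 and 8282 counts (HFD). Car12 followed the order of this sum over the NCD libraries. It did not over the HFD libraries, where Car12 was lowest in HFD replicate 3 and the sum in HFD replicate 1. Per 1000 CPM of those markers, Car12 was at 6.81, 9.15 and 11.3 CPM in the NCD and at 7.61, 8.94 and 5.99 CPM in the HFD libraries. The part of choroid plexus in the Car12 values was not tested.

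Car14, a transmembrane enzyme found on neurons, lies at chr3:95897768-95904691 on the reverse strand. It stood at 26.0, 30.9 and 33.0 CPM in the NCD and at 30.9, 29.0 and 26.1 CPM in the HFD libraries. All 3 HFD values lay within the NCD range. The diets differed by a log2 fold change of -0.065 (SE 0.14, 95% interval -0.36 to 0.23, adjusted p = 0.979 in edgeR).

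Car14 overlaps Aph1a, a gamma-secretase subunit gene on the other strand, over 445 exon bases (17.5% of the exon bases of Car14) at the end where 3′ reads fall. Of the 426 stretches of 75 bases, the read length, in the last 500 bases of the Car14 transcript, 373 (87.6%) also lie in Aph1a transcripts. The use of strand in the counting is not given in the sources used here, so reads of the 2 genes may not be told apart. Aph1a stood at 53.1, 58.1 and 60.3 CPM in the NCD and at 55.1, 52.2 and 43.9 CPM in the HFD libraries, with a log2 fold change of -0.18 (SE 0.12, adjusted p = 0.979 in edgeR). The Car14 count was 49.1%, 53.1% and 54.7% of the Aph1a count in NCD replicates 1 to 3 and 56.1%, 55.4% and 59.6% in HFD replicates 1 to 3, higher in every HFD library, a ratio looked at after the counts were seen and not tested.

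**Figure D4:**
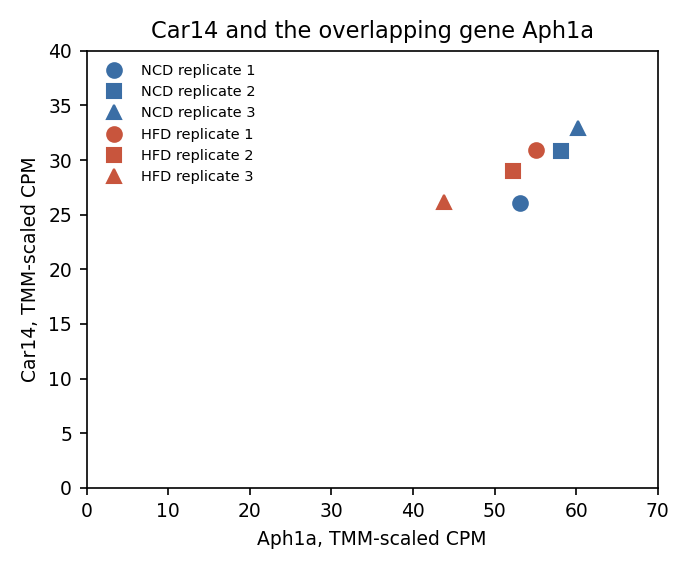
Level of Car14 in CPM against that of Aph1a in CPM, with 1 point per library and colours for the diets. The library with the lowest Aph1a level (43.9 CPM, HFD replicate 3) has 26.1 CPM of Car14, and the highest of each (60.3 and 33.0 CPM) is NCD replicate 3.

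Car15, a membrane-anchored enzyme that is best known from kidney in mice, lies at chr16:17835276-17838364 on the reverse strand. It was read 26, 46 and 43 times in the NCD and 23, 11 and 19 times in the HFD libraries, or 3.21, 4.96 and 4.53 CPM against 3.31, 1.20 and 2.61 CPM. HFD replicate 1 lay above NCD replicate 1, so the diets overlapped. The means were 4.23 ± 0.913 CPM and 2.38 ± 1.07 CPM (SD, n = 3), and the log2 fold change was -0.87 (SE 0.39, 95% interval -1.68 to -0.049, adjusted p = 0.979 in edgeR). Without HFD replicate 2, the lowest library, it was -0.52. The unadjusted p was over 0.05 there, and also without NCD replicate 2 (-0.74) or NCD replicate 3 (-0.82). Over all alternatives the adjusted p of Car15 ran from 0.733 to 0.9999.

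Car15 shares 1253 exon bases (65.7%) with the annotated gene Gm20518 on the same strand. Of 426 stretches of 75 bases in the last 500 bases of Car15, 424 (99.5%) also lie in Gm20518, which was not analysed here, so these reads could belong to either. The neighbouring gene Dgcr2 had 420, 482 and 495 counts (NCD) and 347, 479 and 332 counts (HFD), with a log2 fold change of -0.075 (SE 0.11, adjusted p = 0.979 in edgeR). The Car15 count was 6.19% to 9.54% of that of Dgcr2 in the NCD and 2.30% to 6.63% in the HFD libraries, a ratio that was not tested. For each gene, only the transcript with the longest coding sequence was searched. In the other 8 genes, the last 500 bases of that transcript shared no stretch of 75 bases with another gene.

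Car8 binds the inositol trisphosphate receptor Itpr1 and is known above all from Purkinje cells of the cerebellum. It lies at chr4:8143362-8239041 on the reverse strand. It stood at 18.1, 16.3 and 15.9 CPM in the NCD and at 14.1, 18.5 and 17.3 CPM in the HFD libraries, which enclosed the NCD range. With a log2 fold change of -0.0064 (SE 0.16, 95% interval -0.35 to 0.34, adjusted p = 0.999 in edgeR), its limits were -21.5% and 26.2%. Cerebellar tissue was left out in dissection, and its granule cell marker Gabra6 had 0 or 1 count per library. Pcp2, a marker of Purkinje cells, had 128, 191 and 94 counts in the NCD and 117, 158 and 130 counts in the HFD libraries, so transcripts of that list were present in both diets. Itpr1 stood at 285 ± 13.4 CPM (NCD) and 289 ± 23.5 CPM (HFD), with a log2 fold change of 0.019.

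Car10, a secreted binding partner of neurexins, lies at chr11:93098028-93601749 on the forward strand and is the longest of the 10 genes. It stood at 136, 129 and 125 CPM in the NCD and at 125, 141 and 134 CPM in the HFD libraries. The diets overlapped, and the replicate spread was the smallest of the 10 genes (4.32% and 5.86% of the mean, with a counting error of 3.01%). For the diets, a log2 fold change of 0.034 was found (SE 0.10, adjusted p = 0.988 in edgeR), and the 95% interval of -0.19 to 0.25 has limits of -12.1% and 19.3%.

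Car11, the closest relative of Car10 and also a neurexin-binding protein, lies at chr7:45699843-45704682 on the forward strand. It stood at 69.5, 71.7 and 79.6 CPM in the NCD and at 73.1, 71.7 and 87.4 CPM in the HFD libraries. HFD replicate 3 was highest and the other HFD libraries lay within the NCD range. Its log2 fold change was 0.071 (SE 0.12, 95% interval -0.17 to 0.32, adjusted p = 0.979 in edgeR), and -0.025 without HFD replicate 3. Of the neurexins, Nrxn2 had 1807 CPM (NCD) and 1614 CPM (HFD) with a log2 fold change of -0.16, and 0 of the 4 partner genes tested had an unadjusted p under 0.05.

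The 6 other carbonic anhydrases were low. Car5b, a mitochondrial enzyme, was read 51, 42 and 49 times in the NCD and 28, 44 and 28 times in the HFD libraries. It was the only one of them to pass the filter, with a log2 fold change of -0.32 (SE 0.28, adjusted p = 0.979 in edgeR), and its diets overlapped. The mitochondrial Car5a had 1 to 9 counts, the hypoxia-induced Car9 3 to 8 counts and the cytosolic Car13 2 to 15 counts per library. The salivary Car6 was read once, in HFD replicate 2.

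Genes that move or use the products of these enzymes were taken from lists of bicarbonate transporters, sodium-proton exchangers, cation-chloride cotransporters and bicarbonate-using enzymes. Of 10 bicarbonate transporters tested of 15 listed, 1 was lower and 0 were higher at an unadjusted p under 0.05, with a median log2 fold change of -0.13, where 1.98% of all genes tested were lower and 1.71% higher. Of 6 sodium-proton exchangers tested of 10 listed, 2 were lower and 0 higher, beside the same 1.98% and 1.71% of all genes, with a median of -0.18. Neither direction was seen among the 5 cation-chloride cotransporters (of 7) and the 8 bicarbonate-using enzymes (of 10) tested, with medians of 0.0081 and -0.046. No gene of these lists passed after adjustment over all genes, where edgeR called 0 genes in all.

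The transporter was Slc4a7, a sodium-bicarbonate cotransporter, at 24.2, 22.5 and 29.7 CPM in the NCD and 21.2, 17.5 and 22.4 CPM in the HFD libraries (log2 fold change -0.33, SE 0.16, adjusted p = 0.979 in edgeR). Of the exchangers, the neuronal Slc9a5 stood at 15.6, 15.9 and 16.3 CPM (NCD) and 13.8, 11.9 and 10.3 CPM (HFD), with a log2 fold change of -0.41 (SE 0.17, adjusted p = 0.979 in edgeR). In both genes every HFD library lay below every NCD library, as in 4.49% of all genes tested.

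The most abundant genes of 3 of the lists did not pass the unadjusted threshold. Slc4a4, the sodium-bicarbonate cotransporter of astrocytes, had 193 ± 7.08 CPM (NCD) and 174 ± 30.3 CPM (HFD). The neuronal chloride exporter Slc12a5 had 376 ± 14.7 and 340 ± 73.9 CPM, with HFD replicate 3 at 256 CPM. Pccb, a subunit of the biotin-dependent propionyl-CoA carboxylase, had 49.1 ± 4.32 and 56.2 ± 3.39 CPM (log2 fold change 0.19, adjusted p = 0.979 in edgeR). It was higher in every HFD library, as were 4.31% of all genes tested.

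**Figure D5:**
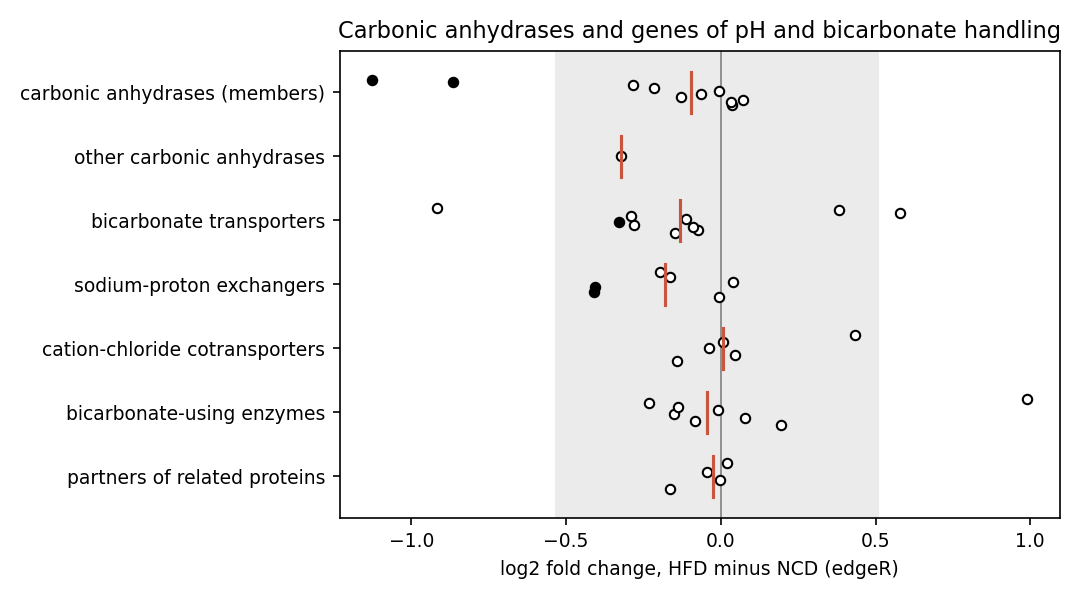
Log2 fold change, HFD against NCD, of each tested gene in the pH and bicarbonate lists and of the carbonic anhydrases, with 1 point per gene, filled where the unadjusted p was under 0.05, the median of each list as a line and the central 95% of all genes in grey. The lists' medians lie between -0.32, from Car5b alone, and 0.0081.

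The genes whose levels followed those of a carbonic anhydrase most closely over the 6 libraries were found by Pearson's r of log2 CPM among genes with a mean count of at least 100. They are given as a description, since with 6 points many genes reach high values. For Car2 these were Gpsm2 (r = 0.990), Trmt10a (0.987) and Vip (0.985), and 170 of 8832 genes had an r over 0.9. Car3 was followed by Prdm16 (0.986), Dck (0.986) and Oscp1 (0.985), with 31 genes over 0.9. For Car15 they were Pabpn1 (0.987), Fam118b (0.980) and Cyb5r3 (0.969), with 33 genes over 0.9. The libraries are those of the diet comparison and share its depth and composition.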

How the data were processed

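Forebrain RNA of 3 NCD and 3 HFD libraries was measured. Per the labels and methods, the authors prepared QuantSeq 3′ libraries, sequenced 75-base single reads, aligned them to mm10 with Bowtie2 and counted unique and multiple alignments with Bedtools. The deposited values are raw read counts per gene, before the quantile normalization of the study. Tool versions, annotation and use of strand are not given in the sources used here. Of 23282 entries, 4346 had no count and 44 shared a symbol with an earlier one.

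Counts were scaled by TMM, and CPM use the TMM-scaled library size, while shares of the total count use the raw totals. Tests used edgeR 4.0.16 in R 4.3.3 (filterByExpr with a minimum count of 10 and minimum total of 15, glmQLFit, glmQLFTest, diet only), with Benjamini-Hochberg adjustment over 13771 genes. Standard errors were derived from the F statistic (log2 fold change over root F). The common biological coefficient of variation was 0.126. The test was checked on simulated counts. Alternatives used DESeq2 1.42.0, limma 3.58.1 after quantile normalization of log2(CPM + 1), other scalings and filters, robust dispersion, the replicate number as a block and leaving out libraries. Leaving out NCD replicates 1 and 2 was added after seeing the data. Replicates differed by more than sampling noise (chi-square per degree of freedom 3.58 to 17.1).

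Positions, exon lengths and coding sequences came from GRCm38 with GENCODE vM21, and translations were aligned with MAFFT 7.526. Deviations from the diet means correlated at -0.030, 0.052 and -0.057 between same-numbered libraries. With 3 libraries per diet, these values cannot decide whether the numbers pair samples, and the sources used here do not say. Some items that these rules name are not reported here. Named genes are the 10 carbonic anhydrases, the 6 others, the genes of each pH list with an unadjusted p under 0.05 or the highest mean CPM, defining markers, neighbours and the 3 most alike genes. Members and lists were chosen with earlier results of these data known.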

Additional observations from a re-analysis of the deposited data

How the results depend on the processing

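The direction of the log2 fold changes of Car3, Car7 and Car15 held in all settings in which each was tested, and Car3 and Car15 had no adjusted p under 0.05 in any. The number of carbonic anhydrases lower at an unadjusted p under 0.05 (2) was 1 with at least 10 counts in every library, where Car3 was not tested, 1 with the replicate block and 1 without NCD replicates 1 and 2, where it was Car12 and where the lone NCD library, the highest for Car12, is assumed to vary like the HFD libraries. It ran from 0 to 2 when 1 library was left out, 0 without HFD replicate 2. Under the block, Car15 had an unadjusted p over 0.05, and 371 of all genes passed in place of 507. Whether the replicate numbers that the block rests on pair the samples is not known. All genes at an unadjusted p under 0.05 were 902 without a count filter, 967 without NCD replicates 1 and 2, and 411 to 773 with 1 library left out, most without HFD replicate 1. Genes with an adjusted p under 0.05 (0) were 2 in DESeq2, 23 without a filter, 2 without NCD replicates 1 and 2, and 0 to 3 with 1 library left out, with 3 reached without NCD replicate 3. The 3 genes of the pH and bicarbonate lists became 1 in DESeq2, 5 without a filter and 1 to 3 with 1 library left out, with 1 left when the library was NCD replicate 1, NCD replicate 2 or HFD replicate 2.

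Small changes turned sign. With 1 library left out, the log2 fold change ran from -0.048 to 0.12 for Car2 (-0.048 without NCD replicate 3 and -0.014 without HFD replicate 3), from -0.26 to 0.019 for Car4, from -0.092 to 0.096 for Car8 (0.052 without NCD replicate 1), from -0.00874 to 0.077 for Car10, from -0.025 to 0.13 for Car11, from -0.51 to 0.00327 for Car12 and from -0.15 to 0.00976 for Car14. It did not turn for Car3 (-1.22 to -0.95), Car7 (-0.40 to -0.040) or Car15 (-1.18 to -0.52). Without NCD replicates 1 and 2 it was 0.15 for Car4, 0.069 for Car8 and -0.041 for Car11. On the log2(CPM + 1) scale, which shrinks low genes, Car3 was at -0.66 and Car15 at -0.66. Apart from the scale and the smaller number of libraries or genes, the cause of these shifts was not tested. An unadjusted p under 0.05 was lost in 9 of 16 settings for Slc4a7 and 7 for Slc9a5. Depth limits Car3 and Car15, whose counting errors alone were 27.2% and 18.9% of the mean, and 5 of the 6 other carbonic anhydrases, which were under the filter.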
